A study of Mus musculus with 96 samples.

Results

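The proteasome is the large protease that degrades proteins tagged with ubiquitin, and the results below describe the messenger RNA of its genes in mouse back-skin epidermis. All gene symbols in the deposited tables that begin with Psma to Psmg and a digit were taken, apart from pseudogenes and 1 alpha-ring gene that is not analysed here. Of the 48 symbols so found, 46 had a mean of at least 0 log2 RPKM (log2 of reads per kilobase of transcript scaled to the library's total, so 0 is 1 RPKM) over 96 libraries and were kept, out of 22497 genes in the tables. Below the threshold lay Psma8 at -6.11 and Psmb11 at -2.32, whose products are known from testis and thymus, and just above it lay Psmc3ip at 1.70 and Psmf1 at 2.48. Psmc3ip fits the naming pattern, but it encodes a partner protein of meiotic recombination and no proteasome subunit, so it is counted with the 46 and described apart.

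The mice were 8-week-old C57BL/6 females held in darkness for 156 to 176 h, and 4 mice of each genotype were sampled at each of 6 circadian times (CT), 4 h apart, which gives 24 libraries per genotype. WT mice carried Arntl wt/wt with K14Cre wt/tg and Syt10-Cre tg/wt. The other 3 genotypes carried Arntl stopFL/stopFL, an allele of the clock activator gene Arntl (its product is BMAL1) that is stopped until Cre removes the cassette. RERE mice had K14Cre tg/wt and Syt10-Cre tg/wt, EpiRE mice had K14Cre tg/wt and Syt10-Cre wt/wt, and BRE mice had K14Cre wt/wt and Syt10-Cre tg/wt. K14Cre is driven by a keratin promoter active in epidermis and other stratified epithelia, and Syt10-Cre by a promoter active in the brain's central clock, so per the labels the clock was rebuilt in both tissues, in epidermis, or in brain. WT and RERE thus carried both drivers, and EpiRE and BRE lacked 1 each, which cannot be told apart from the state of the clock in contrasts with these 2 genotypes. The comparisons ask how proteasome transcripts vary over the day, and with where the clock runs.

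Recovered reads per library totalled 11.1 to 19.9 M (median 15.2 M). Arntl itself, counted over the whole gene, averaged 3.88 log2 RPKM (SD 0.83, n = 24) in WT, 3.89 (SD 0.78) in RERE, 4.16 (SD 0.31) in EpiRE and 3.88 (SD 0.14) in BRE, and such a count does not tell a stopped from a complete transcript. Keratinocyte markers dominated, with a summed level of 14.5 to 14.6 log2 RPKM in every genotype, while all 6 fibroblast, 3 endothelial, 3 muscle and 3 adipocyte markers averaged below 0. Markers of T cells (5 of 5) and of Langerhans and myeloid cells (7 of 8, without Lyz2) were above 0. In such bulk samples, fewer cells of a type and less RNA per cell cannot be told apart. RERE CT16 replicate 2, EpiRE CT0 replicate 1 and EpiRE CT8 replicate 1 stood apart from the other libraries of their groups, and calls that change without them are given both ways.

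As background, the proteolytic core is a barrel of alpha rings, which gate entry, and beta rings, which hold the active sites of Psmb5, Psmb6 and Psmb7. A cap unfolds and feeds in substrates: its base holds the ATPases Psmc1 to Psmc6, and its lid removes ubiquitin through Psmd14. Interferon induces Psmb8, Psmb9 and Psmb10, which replace the constitutive active sites to form the immunoproteasome, and Psme1 and Psme2, which form an alternative cap; these shape the peptides shown on MHC class I. Dedicated chaperones assemble the core (Psmg1 to Psmg4) and the base (Psmd5, Psmd9, Psmd10). Transcription of the standard subunits is known to be driven together by the factor NRF1, encoded by Nfe2l1.

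Proteasome genes were expressed well above the typical gene. Their median was 5.23 log2 RPKM (range 1.70 to 6.86), against 3.39 over the 11028 genes of mean at least 0. The 30 standard subunits of core, base and lid had a median of 5.50, from Psmd11, a lid subunit, at 3.82 (14.2 RPKM) to the beta-ring subunit Psmb1 at 6.86 (116 RPKM). Psmb4, another beta-ring subunit, followed at 6.65 and the activator subunit Psme1 at 6.47. By role, medians were 5.77 for 6 alpha-ring genes, 5.93 for the 3 constitutive active sites, 5.59 for the 6 ATPases and 5.23 for the 8 lid genes. Assembly chaperones were lower, at 3.59 for the 4 of the core and 3.04 for the 3 of the base. These levels are per kilobase, so they can be set side by side between genes. Read depth was ample for most: the median library held 58 reads for Psmc3ip, 91 for Psmg4 and 2738 for Psmd2.

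**Figure D1:**
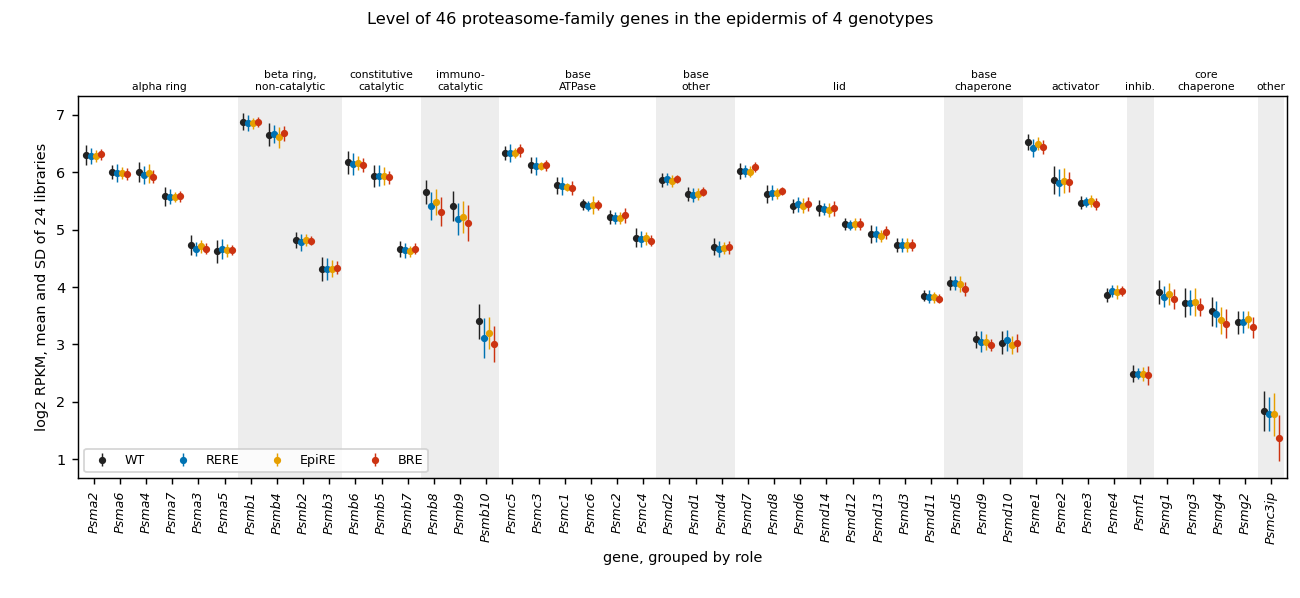
Mean level of each of the 46 genes (y axis, log2 RPKM; points are means and bars SD of 24 libraries) in WT, RERE, EpiRE and BRE, grouped by role along the x axis. The 4 genotypes nearly coincide for the 30 standard subunits, whereas Psmb8, Psmb9 and Psmb10 are highest in WT (5.66, 5.41 and 3.4).

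The standard subunits kept nearly the same level in every genotype. Their mean was 5.45 log2 RPKM in WT (SD 0.12 over 24 libraries), 5.44 in RERE (SD 0.12), 5.44 in EpiRE (SD 0.06) and 5.45 in BRE (SD 0.07). The libraries ranged from 5.26 to 5.70 in WT, 5.30 to 5.77 in RERE, 5.30 to 5.57 in EpiRE and 5.31 to 5.65 in BRE, so all 4 genotypes overlapped.

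In WT epidermis, proteasome transcripts varied over the day and were highest around CT0, subjective dawn. The mean of the 30 standard subunits lay 0.134 log2 above the WT mean at CT0 (its 4 libraries from 0.005 to 0.243) and 0.106 below it at CT12 (-0.196 to -0.060), with no overlap between the libraries of these times. At CT0, 15 to 29 of the 30 subunits were above their own WT mean in each library, and at CT12 0 to 7 were. The intermediate times were mixed: at CT8 the 4 libraries spread from -0.185 to 0.132, and at CT20 from -0.089 to 0.114.

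A 24 h cosine was fitted to each gene by limma (moderated F test, Benjamini-Hochberg adjustment over all tested genes, called at an adjusted p under 0.05). It called 21 of the 46 genes in WT, against 33.1% of all genes tested. Without a parametric shape, with the 6 times as a factor, limma called 6, namely Psmc1, Psmd2, Psmd3, Psmd6, Psmd8 and Psmd13, and with no filter on low genes it called 12. Leaving out replicate 1, 2, 3 or 4 of the labels gave 4, 7, 17 and 8 calls. The lid genes Psmd3 and Psmd8 were called in each of the 11 alternatives run, while the other 19 lost their call in at least 1.

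Of the 30 standard subunits, 18 were called in WT. Their amplitudes, the height of the cosine above its mean, were small: the median of the 30 was 0.118 log2, close to the median of all genes tested, 0.119. Calls fell in the lid (Psmd3, Psmd6, Psmd8, Psmd13, Psmd14), the base (Psmc1, Psmc4, Psmc5, Psmd1, Psmd2), the alpha ring (Psma2, Psma5, Psma6, Psma7) and the beta ring (Psmb2, Psmb4, Psmb6, Psmb7). The other 3 called genes were the activator subunits Psme1 and Psme2 and the base chaperone Psmd10. All 21 peaked between CT22.26 and CT2.64, whereas 32.7% of all called genes peaked in the 8 h from CT20 to CT4.

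Psmd3, a subunit of the lid, had the smallest p. Its WT values were 4.90, 4.87, 4.65 and 4.94 log2 RPKM at CT0 and 4.61, 4.61, 4.62 and 4.56 at CT12. Every library at CT0 was above every library at CT12. Its amplitude was 0.13 (SE 0.03) with a peak at CT1.66 (SE 0.78 h), a rise of 19.4% from trough to peak (limma adjusted p = 0.00247). Separations between times, here and below, describe genes already called and are no further evidence. The share of all genes that separate so is not given here.

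Psmd8, also of the lid, read 5.70, 5.94, 5.67 and 5.71 at CT0, 5.68, 5.73, 5.83 and 5.93 at CT4, and 5.43, 5.45, 5.52 and 5.48 at CT16. All 8 libraries of CT0 and CT4 exceeded the 4 of CT16. At CT12, the time set beside CT0 for other genes, Psmd8 read 5.46, 5.49, 5.69 and 5.52. The highest of these exceeded the lowest CT0 library, so CT0 and CT12 overlapped. The fit gave an amplitude of 0.16 (SE 0.03) and a peak at CT2.64 (limma adjusted p = 0.00282).

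Among the active sites, Psmb6 had an amplitude of 0.16 (SE 0.05, limma adjusted p = 0.0304), with 6.53, 6.63, 6.12 and 6.33 at CT0 and 5.99, 6.03, 6.22 and 5.89 at CT12; here 1 library of CT12 exceeded 1 of CT0. Psmb7 was called too, at 0.12 (SE 0.04, adjusted p = 0.0348), with 4.97, 4.94, 4.70 and 4.75 at CT0 and 4.51, 4.56, 4.70 and 4.45 at CT12. Psmb5, the chymotrypsin-like site, was not called, at 0.13 (SE 0.05, adjusted p = 0.106), with 6.35, 6.23, 6.00 and 5.96 at CT0 and 5.88, 5.99, 5.80 and 5.66 at CT12. Its lowest CT0 library was below the highest of CT12.

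Of the ring subunits, Psma5 read 4.92, 5.06, 4.78 and 4.63 at CT0 and 4.47, 4.41, 4.50 and 4.28 at CT12. Psmb4 read 6.95, 6.94, 6.73 and 6.65 at CT0 and 6.55, 6.57, 6.45 and 6.38 at CT12. Neither overlapped between these times, and each had an amplitude of 0.16 (SE 0.05; adjusted p = 0.0328 for Psma5 and 0.0335 for Psmb4). Psma2, with the highest level in the alpha ring, had 0.14 (SE 0.04, adjusted p = 0.0222). Psmd10, the base chaperone also known as gankyrin, had 0.16 (SE 0.05, adjusted p = 0.0345), and its values overlapped, with 3.46, 3.18, 3.25 and 3.03 at CT0 and 2.63, 2.83, 2.92 and 3.22 at CT12.

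Psme2, a subunit of the interferon-inducible cap, had the largest amplitude among the called genes, 0.21 (SE 0.05, adjusted p = 0.0122). It read 6.38, 6.03, 5.86 and 5.98 at CT0 and 5.59, 5.68, 5.70 and 5.37 at CT12, without overlap.

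The 3 immunoproteasome active sites were not called in WT. Psmb10 had a fitted amplitude of 0.22 (SE 0.07, limma adjusted p = 0.0562), Psmb9 0.15 (SE 0.07, adjusted p = 0.188) and Psmb8 0.09 (SE 0.06, adjusted p = 0.436). Their WT libraries were scattered within a time: Psmb8 read 5.56, 5.63, 5.56 and 6.21 at CT8. Psmb10 is called when the libraries are rescaled by medians of ratios (adjusted p = 0.0330).

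**Figure D2:**
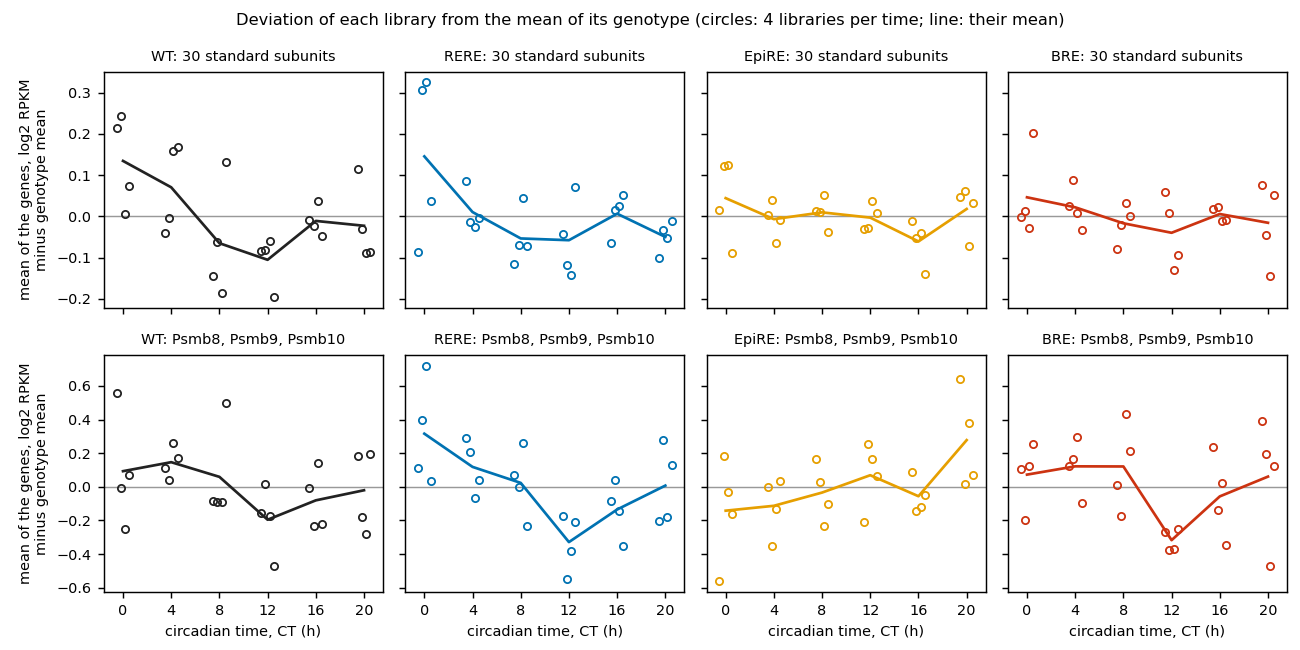
Mean of the 30 standard subunits (top) and of Psmb8, Psmb9 and Psmb10 (bottom) in each library, as log2 RPKM minus the mean of its genotype (y axis), against circadian time (x axis, h); circles are the 4 libraries per time and lines their mean. In WT the standard subunits go from 0.134 at CT0 to -0.106 at CT12, while in RERE the immunoproteasome genes go from 0.316 to -0.329.

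In RERE epidermis, with the clock rebuilt in brain and epidermis, 9 of the 46 genes were called, against 19.4% of all genes tested. They were Psma2, Psmb6, Psmd3, Psmd8, Psme1, Psme2 and the 3 immunoproteasome genes. The count was 6 with the times as a factor, 6 with no filter, and 7, 1, 3 and 5 without replicates 1 to 4; Psmb9 alone remained without replicate 2. Without RERE CT16 replicate 2, which stood apart, it was 10, with Psmb2 added. Of these genes 6 were also called in WT, which is 28.6% of the WT calls and 66.7% of the RERE calls. All 9 peaked between CT23.99 and CT1.51, while 39.1% of all called genes peaked from CT20 to CT4.

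The immunoproteasome genes had the widest swings of RERE members that were called, together with Psme2. Psmb10 read 3.26, 3.58, 3.95 and 3.24 log2 RPKM at CT0 and 2.90, 2.40, 2.62 and 2.82 at CT12. Psmb9 read 5.27, 5.54, 5.93 and 5.27 at CT0 and 5.04, 4.65, 4.87 and 5.03 at CT12. Psmb8 read 5.52, 5.78, 5.99 and 5.30 at CT0 and 5.25, 5.02, 5.06 and 5.22 at CT12. In each of the 3, every CT0 library exceeded every CT12 library. This separation describes genes already called, and its share over all genes is not given here.

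Amplitudes in RERE were 0.34 for Psmb10 (SE 0.07, limma adjusted p = 0.00517), 0.27 for Psmb9 (SE 0.06, adjusted p = 0.00705) and 0.20 for Psmb8 (SE 0.06, adjusted p = 0.0436), which are trough-to-peak rises of 59.6%, 44.6% and 31.6%. Psme2 had 0.23 (SE 0.05, adjusted p = 0.00368) and Psme1 0.15 (SE 0.04, adjusted p = 0.0116). The difference in rhythm between RERE and WT was tested itself: no member was called, against 0.0% of all genes. At an unadjusted p under 0.05 were 0 of the 46, against 837 of 11051 genes. A call in RERE beside none in WT is therefore not a shown difference for Psmb8, Psmb9 or Psmb10. Among markers of other cells, 1 of 5 T cell markers, Thy1, was called over the day (amplitude 0.81 in WT and 0.82 in RERE, peaks at CT0.525 and CT1.20) and 0 of 7 Langerhans and myeloid markers were, in either genotype. Their part in these values was not tested.

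Of the 30 standard subunits, 4 were called in RERE: Psma2, Psmb6, Psmd3 and Psmd8. The lid gene Psmd3 read 4.68, 4.86, 5.02 and 4.81 at CT0 and 4.69, 4.59, 4.50 and 4.64 at CT12 (amplitude 0.12, SE 0.03, adjusted p = 0.0084). The standard subunits' median amplitude was 0.072, against 0.099 for all genes. Of the 21 genes called in WT, all 21 had a fitted RERE peak within 4 h of WT and 19 a smaller amplitude, with a median ratio to WT of 0.72. In EpiRE 17 of these 21 and in BRE 18 also had a fitted peak within 4 h of WT. Their median amplitude ratios to WT were 0.33 and 0.37. The 21 were picked by their WT values, which tends to lower such ratios, so they are a description. The same counts over all genes called in WT are not given here. None of the 21 was called in EpiRE, and in BRE only Psme1 was. The SE of their fitted peaks ran from 1.59 h (Psmb6) to 14.9 h (Psme2) in EpiRE. In BRE it ran from 0.80 h (Psme1) to 9.87 h (Psmc5). At CT0 the RERE libraries were split, with standard-subunit means from -0.086 to 0.325. Psmb5, not called, showed this split: it read 5.80, 6.45, 6.46 and 5.91 at CT0, so replicates 2 and 3 were high and replicates 1 and 4 were in or near the range of 5.74 to 5.93 at CT12.

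In EpiRE, with the clock rebuilt in epidermis and not in brain, 0 of the 46 genes were called by limma, and 0.0% of all genes. Psmc3ip alone had an unadjusted p under 0.05, against 1397 of 11061 genes, and limma-voom on recovered reads also called 0. The standard subunits had a median amplitude of 0.042, against 0.074 for all genes. Their time means lay between -0.061 at CT16 and 0.044 at CT0. The immunoproteasome genes had their highest time mean at CT20 (0.278, libraries from 0.018 to 0.642) and fitted peaks from CT16.1 for Psmb9 to CT19.1 for Psmb10, none of which passed the test (adjusted p = 0.607 for Psmb9 and 0.750 for Psmb10). EpiRE CT0 replicate 1, which stood apart, had the lowest mean of these genes in EpiRE, at -0.559, and enters these fits.

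In BRE, with the clock rebuilt in brain and not in epidermis, 1 gene was called, Psme1, against 1.14% of all genes. Its values were 6.45, 6.55, 6.47 and 6.64 at CT0 and 6.38, 6.42, 6.30 and 6.31 at CT12, without overlap. They were 6.49, 6.58, 6.62 and 6.42 at CT4 and 6.45, 6.37, 6.38 and 6.17 at CT16, which overlapped. The amplitude was 0.12 (SE 0.02) with a peak at CT3.82 (limma adjusted p = 0.0395), and the call was lost in 8 of 11 alternatives, among them each replicate left out (highest adjusted p = 0.249). For Psmb8, Psmb9 and Psmb10 the CT12 mean was low in BRE too: the deviations of its 4 libraries from the BRE mean ran from -0.378 to -0.252 log2, but the cosine was not called (adjusted p = 0.411, 0.379 and 0.285).

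**Figure D3:**
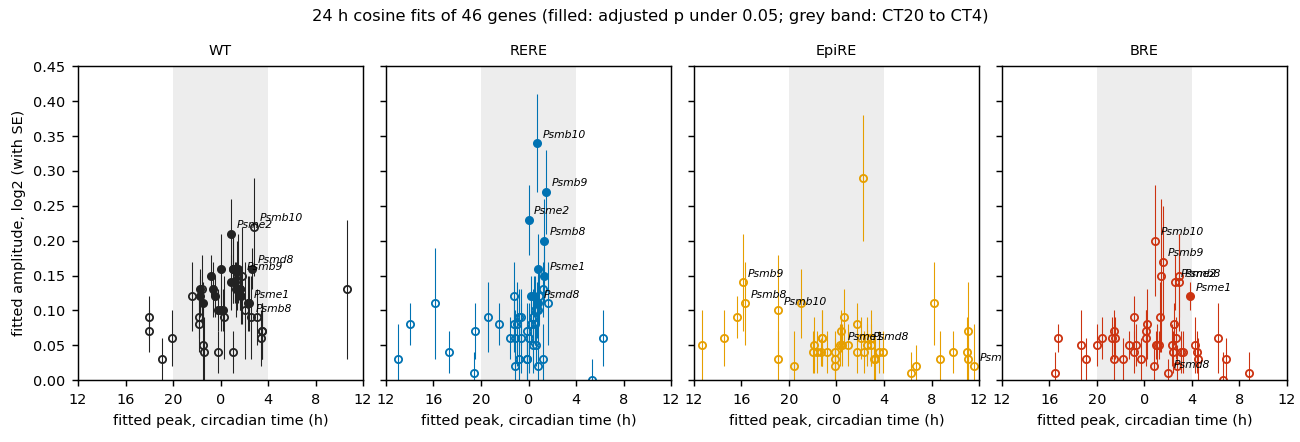
Fitted 24 h amplitude (y axis, log2, bars SE) against fitted peak time (x axis, circadian time in h) of the 46 genes in each genotype; filled points have a limma adjusted p under 0.05 and the grey band marks CT20 to CT4. The 21 filled points of WT and 9 of RERE lie in the band, EpiRE has none and BRE has 1, Psme1.

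Direct tests of the difference in rhythm called 1 member in 5 contrasts, Psmd8 in BRE against WT (limma adjusted p = 0.0433; 5.69% of all genes called). Psmd8 was flat in BRE: its time means lay between 5.65 and 5.70, with values such as 5.62, 5.69, 5.57 and 5.82 at CT0 and 5.70, 5.59, 5.64 and 5.69 at CT16. This call was lost with no filter (adjusted p = 0.0707) and without any 1 of the 4 replicates (0.0977 to 0.170). EpiRE against WT called 0 members against 1.57% of genes, although 11 had an unadjusted p under 0.05, Psmd3 the smallest (adjusted p = 0.164) and Psmd13 next (adjusted p = 0.224); limma-voom also called 0. RERE against EpiRE called 0 against 1.05%, with 8 under an unadjusted 0.05; the smallest were Psmb9 (adjusted p = 0.0786) and Psmb8 (adjusted p = 0.167), followed by Psmb10 (adjusted p = 0.220). There 1 member was called with median-of-ratios scaling (Psmb9) and 1 without replicate 3 (Psmc3ip). RERE against BRE called 0 against 4.19%, with 1 under an unadjusted 0.05, and limma-voom called 0 in both of these contrasts. These contrasts share WT, RERE, EpiRE or BRE libraries and are not independent of each other.

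The level over the whole day, with time as a factor in the fit, was lower for the immunoproteasome genes in BRE than in WT, while that of the standard subunits was not called different. In BRE against WT, 9 of the 46 genes were called (limma, adjusted p under 0.05), against 36.9% of all genes. Of these 8 were lower in BRE, against 24.4% of all genes, and 1 was higher, against 12.5%. None of the 30 standard subunits was called by limma, with 2 under an unadjusted p of 0.05, against 5058 of 11016 genes. The median absolute difference of these subunits was 0.029 log2, against 0.087 for all genes. With median-of-ratios scaling the split turned from 1 higher and 8 lower to 6 higher and 5 lower, as 5 standard subunits (Psmd1, Psmd2, Psmd6, Psmd7, Psmd8) were called 0.06 to 0.11 higher, and Psmd5, Psmd9 and Psme1 were no longer called. Without replicate 3, Psmd7 was called as well; no standard subunit was called in the other 7 alternatives.

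Psmb8, whose product replaces Psmb5, ranged in WT from 5.18 to 6.21 (median 5.66) and in BRE from 4.85 to 5.81 (median 5.36). The ranges overlapped, and the BRE mean was -0.35 log2 from WT (SE 0.06, a change of -21.6%; limma adjusted p = 8.06e-06). Psmb9, which replaces Psmb6, ranged from 5.02 to 5.97 in WT (median 5.36) and from 4.54 to 5.58 in BRE (median 5.18), a difference of -0.30 (SE 0.07, adjusted p = 0.00094). Psmb10, which replaces Psmb7, ranged from 2.87 to 4.12 in WT (median 3.42) and from 2.42 to 3.54 in BRE (median 2.98), a difference of -0.39 (SE 0.08, adjusted p = 7.71e-05). All 3 stayed called in each of the 9 alternatives run, with adjusted p up to 0.00905.

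RERE against WT called 2 members, against 2.14% of all genes. Both were lower in RERE, against 1.35% of all genes, and 0 higher, against 0.787%: Psmb10 at -0.29 (SE 0.07, limma adjusted p = 0.0251) and Psmb8 at -0.25 (SE 0.06, adjusted p = 0.0101). Psmb9 was at -0.23 (SE 0.07, adjusted p = 0.0520), and was called without RERE CT16 replicate 2 (adjusted p = 0.0385). Psmb8 ranged from 5.02 to 5.99 in RERE (median 5.31) and Psmb10 from 2.40 to 3.95 (median 3.11), so both overlapped WT. No member was called without replicate 1 or without replicate 4, 3 without replicate 2 or 3, and 4 with no filter on low genes.

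EpiRE against WT called 0 members by limma, against 2.23% of all genes (0.931% higher and 1.3% lower), with 4 under an unadjusted p of 0.05 and 0 called by limma-voom; with no filter 1 was called. The same 3 genes had differences of -0.18 (Psmb8, SE 0.06, adjusted p = 0.129), -0.19 (Psmb9, SE 0.08, adjusted p = 0.253) and -0.21 (Psmb10, SE 0.08, adjusted p = 0.251). The 3 comparisons share the WT libraries, so the lower values in each are not separate evidence. Standard subunits were not called in RERE or EpiRE against WT. None had an unadjusted p under 0.05, against 1530 of 11051 and 1123 of 11059 genes. The differences of these subunits lay from -0.07 to 0.04 and from -0.04 to 0.01.

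**Figure D4:**
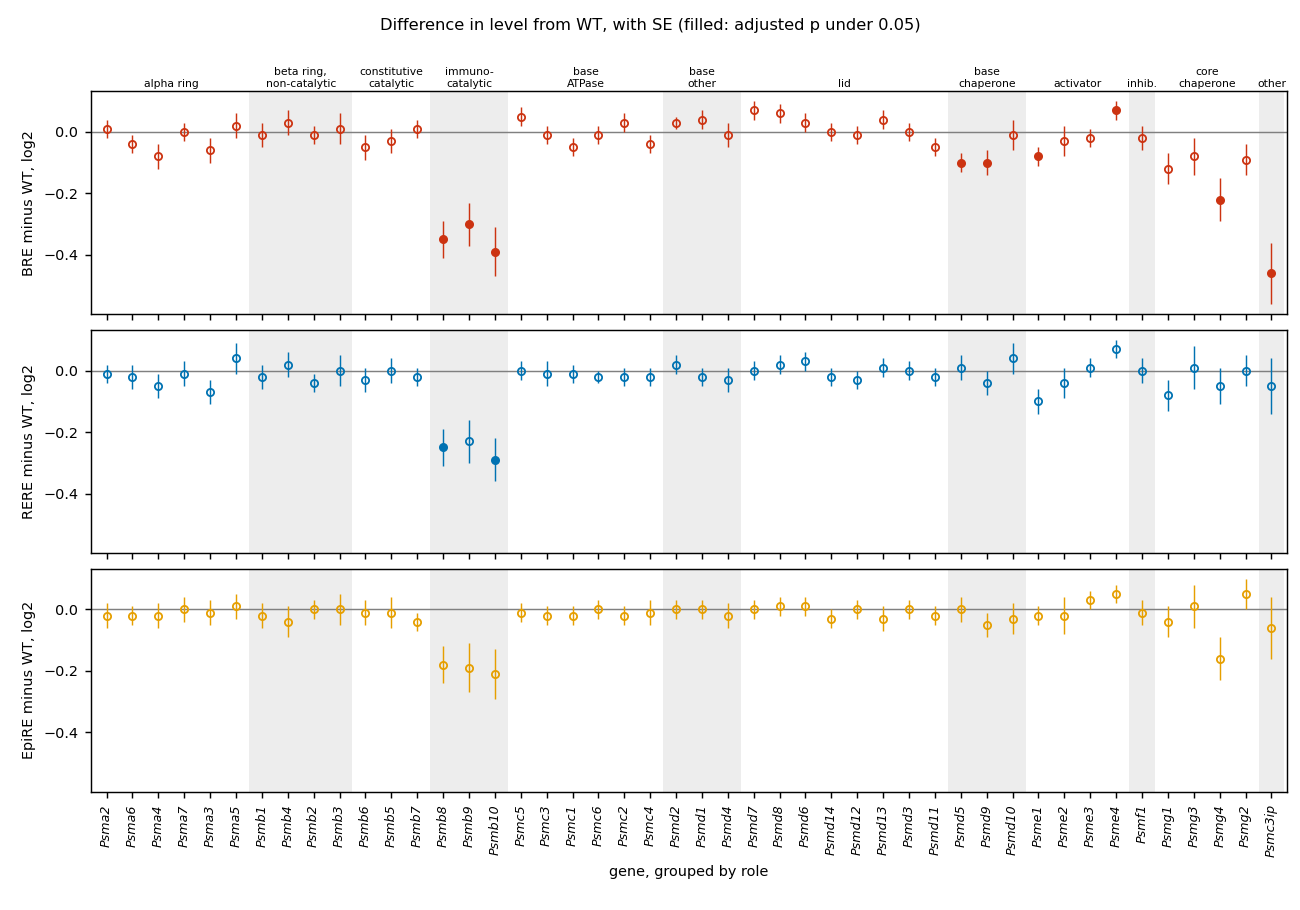
Difference of BRE, RERE and EpiRE from WT (y axis, log2, bars SE) for the 46 genes, grouped by role; filled points have a limma adjusted p under 0.05. Psmb8, Psmb9 and Psmb10 are below 0 in all 3 panels, from -0.39 for Psmb10 in BRE to -0.18 for Psmb8 in EpiRE, and no standard subunit is filled at the deposited scaling (5 were called higher in BRE with median-of-ratios scaling).

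Set beside its constitutive partner, each immunoproteasome gene was the lower of the pair on average. Psmb8 minus Psmb5 averaged -0.28 log2 RPKM in WT (SD 0.18), -0.53 in RERE (SD 0.21), -0.45 in EpiRE (SD 0.22) and -0.60 in BRE (SD 0.28). Psmb9 minus Psmb6 averaged -0.76, -0.95, -0.94 and -1.0 in that order, and Psmb10 minus Psmb7 -1.26, -1.52, -1.42 and -1.66. Psmb5 itself held 5.94, 5.94, 5.93 and 5.91. The genotypes' libraries overlapped in each pair: for Psmb8 minus Psmb5 they ran from -0.62 to 0.11 in WT and from -1.09 to 0.04 in BRE.

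**Figure D5:**
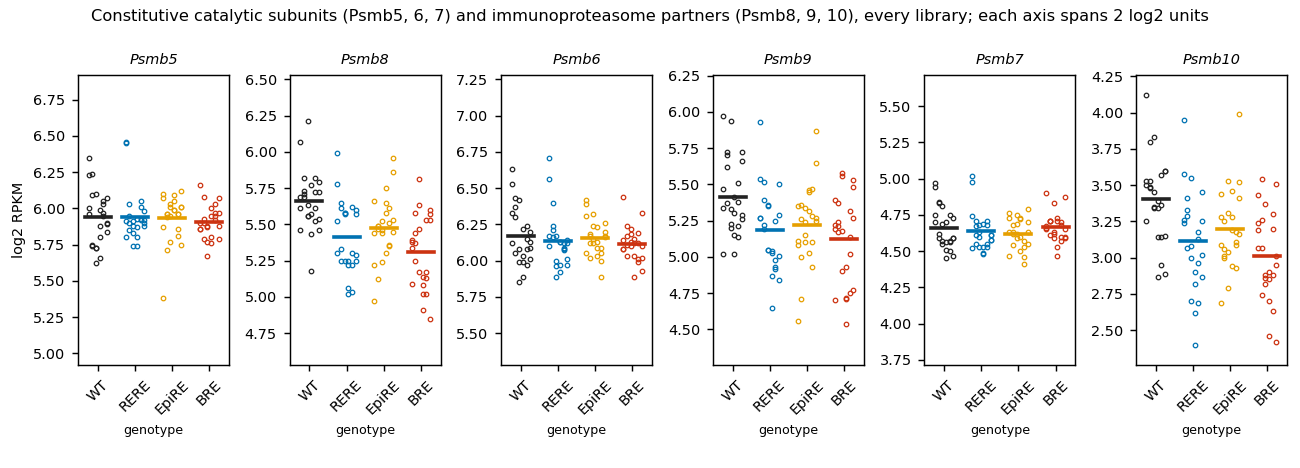
Level of the constitutive active sites Psmb5, Psmb6 and Psmb7 and of the partners that replace them, Psmb8, Psmb9 and Psmb10 (y axes, log2 RPKM, each 2 log2 units high), in every library (circles, ordered by time within a genotype) with the mean of 24 libraries as a bar. The bars of Psmb5 stay between 5.91 and 5.94, while those of Psmb8 go from 5.66 in WT to 5.31 in BRE.

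Psmb8 and Psmb9 lie side by side in the MHC region of chromosome 17, interleaved with the peptide transporter genes. In GRCm38 (mm10; GENCODE M21), Psmb9 spans 34181987 to 34187764 on the minus strand, Tap1 34187553 to 34197225 and Psmb8 34197721 to 34201454 on the plus strand, and Tap2 34203527 to 34216321. Psmb9 and Tap1 overlap at their starts, and neither labels nor headers say how reads in the overlap were assigned. Psmb10 is on chromosome 8, at 105935735 to 105938444, minus strand. The neighbours of Psmb8 were lower in BRE than in WT as well, Tap1 by -0.11 (SE 0.03, limma adjusted p = 0.00533) and Tap2 by -0.43 (SE 0.05, adjusted p = 1.61e-09).

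Sequence upstream of the start is shown for 2 constitutive active sites, the immunoproteasome gene Psmb10 and the lid gene Psmd8. These are examples, of which Psmb5 was not called over the day in any genotype. The sequences are from RefSeq (GRCm38.p6), read 5′ to 3′ on the gene's strand, and stop where annotated untranslated sequence begins. Capitals mark matches to any of 6 motifs searched on both strands in the 250 bases before each start, each on its own, so that matches may overlap. Psmb5 is chr14:54618023-54618245, Psmb6 chr11:70525107-70525356, Psmb10 chr8:105938445-105938642 and Psmd8 chr7:29180702-29180923, all on the minus strand except Psmb6.
Psmb5: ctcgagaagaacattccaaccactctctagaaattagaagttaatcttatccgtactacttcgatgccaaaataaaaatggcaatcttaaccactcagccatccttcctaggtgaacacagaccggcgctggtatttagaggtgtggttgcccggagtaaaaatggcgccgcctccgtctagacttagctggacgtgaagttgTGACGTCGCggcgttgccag
Psmb6: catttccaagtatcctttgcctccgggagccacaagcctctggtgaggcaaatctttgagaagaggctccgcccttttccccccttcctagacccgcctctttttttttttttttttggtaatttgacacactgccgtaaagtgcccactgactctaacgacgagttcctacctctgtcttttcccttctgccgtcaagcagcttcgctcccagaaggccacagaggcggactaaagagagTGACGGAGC
Psmb10: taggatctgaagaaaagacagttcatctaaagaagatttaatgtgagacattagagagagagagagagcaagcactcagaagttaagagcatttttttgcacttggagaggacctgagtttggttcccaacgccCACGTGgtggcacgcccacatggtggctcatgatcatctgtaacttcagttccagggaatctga
Psmd8: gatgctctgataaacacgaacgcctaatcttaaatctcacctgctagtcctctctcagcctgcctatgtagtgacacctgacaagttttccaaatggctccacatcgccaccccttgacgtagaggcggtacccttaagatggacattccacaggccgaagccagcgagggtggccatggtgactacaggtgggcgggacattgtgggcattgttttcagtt
Psmb5 and Psmb6 carry TGACNNNGC, the core of the antioxidant response element that NRF1 and its relatives can bind, and Psmb10 carries CACGTG, the E-box that BMAL1 can bind.

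Of the 46 genes, 39 had a promoter in the table. TGACNNNGC was in 5 of the 39 (12.8%; Psmb5, Psmb6, Psmc6, Psmd9, Psmd12), against 10.2% of all 32851 promoters. CACGTG was in 4 (10.3%; Psma4, Psmb10, Psmd9, Psme3), against 6.02%. The D-box TTATGTAA was in 0, against 0.819%, and the NF-Y motif CCAAT in 13 (33.3%), against 33.8%. The interferon response motif GAAANNGAA was in 3 (7.69%), against 7.13%, and the STAT motif TTCNNNGAA in 2 (5.13%, Psmb8 and Psmg1), against 7.02%. These counts use the whole 250 bases, annotated untranslated sequence included, and the windows of Psmb8 and Psmb9 lie wholly in such sequence. Letters that match are not sites shown to be bound.

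Of the 12 accessory genes (chaperones, activators and the inhibitor), 5 were called in BRE against WT, against 36.9% of all genes. Psmg4, a core assembly chaperone, ranged from 3.09 to 4.32 in WT (median 3.56) and 2.93 to 3.93 in BRE (median 3.31), with a difference of -0.22 (SE 0.07, limma adjusted p = 0.00737). The base chaperones Psmd5 and Psmd9 differed by -0.10 each (SE 0.03 and 0.04, adjusted p = 0.0187 and 0.0330). Of the activators, Psme1 was 0.08 lower in BRE (-0.08, SE 0.03, adjusted p = 0.0437) and Psme4, which encodes a large single-chain cap, 0.07 higher (SE 0.03, adjusted p = 0.0350). Psme2 (-0.03) and Psme3 (-0.02) and the inhibitor Psmf1 (-0.02) were not called. Psmc3ip, the gene that is no subunit, ranged from 1.07 to 2.72 in WT and from 0.24 to 2.13 in BRE, a difference of -0.46 (SE 0.10, adjusted p = 0.000398). Without replicate 1, 4 of the 9 calls remained: Psmb8, Psmb9, Psmb10 and Psmc3ip. Without replicate 2 those and Psmd5 remained.

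BRE was also compared with the other rebuilt genotypes. EpiRE against BRE called 5 members against 34.0% of all genes (22.9% higher in EpiRE and 11.1% lower): Psmc3ip 0.40 higher in EpiRE (SE 0.10), Psmb8 0.17 (SE 0.07), the core chaperone Psmg2 0.14 (SE 0.05), Psmd5 0.10 (SE 0.04), and the lid gene Psmd7 at -0.08 (SE 0.03). Median-of-ratios scaling gave 10 calls there, of which 9 were lower in EpiRE and all 9 standard subunits, and Psmb8, Psmd5 and Psmg2 were no longer called. Without the 2 EpiRE libraries that stood apart 8 were called, and without replicate 2 1 was. RERE against BRE called 4 against 27.5% of all genes (17.4% higher in RERE and 10.1% lower): Psmc3ip at 0.41 (SE 0.09), Psmg4 at 0.17 (SE 0.06), Psmd5 at 0.11 (SE 0.04) and Psmd7 at -0.07 (SE 0.03). The count was 2 without RERE CT16 replicate 2 and 0 without replicate 2 of the labels, and median-of-ratios scaling moved the split from 3 higher and 1 lower to 1 higher and 3 lower. RERE against EpiRE called 0 members by limma against 0.00906% of genes, with 1 under an unadjusted 0.05 and 0 by limma-voom. Psmb8, Psmb9 and Psmb10 differed there by -0.07 (SE 0.07), -0.04 (SE 0.08) and -0.08 (SE 0.08).

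Genes that serve the proteasome were read from a list of 26, of which 25 were tested. In EpiRE and BRE limma called 0 over the day, with 2 and 5 at an unadjusted p under 0.05. Of all genes, 1397 of 11061 and 2071 of 10970 were under that p. It called 9 in WT (36.0%, against 33.1% of all genes) and 5 of the 25 in RERE (against 19.4%). In WT they included ubiquitin itself, Ubb (amplitude 0.26, SE 0.06, peak CT0.830, adjusted p = 0.00514), the unfoldase Vcp (0.13, SE 0.02, peak CT22.7, adjusted p = 0.00102), the shuttle Ubqln1 (0.13, SE 0.03, peak CT21.3, adjusted p = 0.00167), the ligase Ube3c (0.13, SE 0.02, peak CT20.7, adjusted p = 0.00037) and the ubiquitin-activating enzyme Uba1 (0.12, SE 0.03, peak CT22.1, adjusted p = 0.00529). Pomp and Sem1, a core maturation factor and a small lid subunit that were picked after their values were seen, had 0.18 (SE 0.05, adjusted p = 0.0156) and 0.21 (SE 0.05, adjusted p = 0.0162). In RERE the calls were Vcp, Ubb, Uba1, Akirin2 and Nfe2l1 (0.09, SE 0.02, adjusted p = 0.0400).

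In level, 7 of the 25 (28.0%) were called in BRE against WT, against 36.9% of all genes. Of these 6 were higher and 1 lower, against 12.5% and 24.4% of all genes. Nfe2l1 was 0.11 higher (SE 0.02, limma adjusted p = 3.48e-05), Ubqln1 0.16 (SE 0.03, adjusted p = 7.57e-06), Vcp 0.08 (SE 0.02, adjusted p = 0.00133), Rad23b, a ubiquitin shuttle, 0.08 (SE 0.02, adjusted p = 0.00234). Ubqln4 was lower (-0.09, SE 0.03, adjusted p = 0.0180). None was called in RERE or EpiRE against WT by limma. At an unadjusted p under 0.05 was 1 in each, against 1530 of 11051 and 1123 of 11059 genes.

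Genes of MHC class I presentation and interferon signalling, were read from a list of 17. In RERE 6 (35.3%, against 19.4% of all genes) were called over the day: Tap2, the peptide transporter (amplitude 0.23, SE 0.04, peak CT0.777, limma adjusted p = 0.00101), Tap1 (0.13, SE 0.04, peak CT1.35, adjusted p = 0.0434), the loading factor Tapbp (0.13, SE 0.03, adjusted p = 0.0236), the interferon-responsive factor Irf1 (0.42, SE 0.12, peak CT23.3, adjusted p = 0.0381), Calr and Ifngr2. In WT 6 were called as well (35.3%, against 33.1% of all genes). They were Tap2 (0.16, SE 0.04, peak CT4.15, adjusted p = 0.0107), the chaperones Calr (0.45, SE 0.06, peak CT21.0) and Pdia3 (0.29, SE 0.04, peak CT21.1), Canx (0.21, SE 0.03, peak CT19.6), Erap1 (0.13, SE 0.04, peak CT18.4) and Nlrc5 (0.18, SE 0.05, peak CT13.6). In BRE, where 1.14% of all genes were called, Ifngr1 was (0.46, SE 0.08, peak CT12.7, adjusted p = 0.0198). The rhythm of Tap2 differed between RERE and EpiRE (adjusted p = 0.00158) and between EpiRE and WT (adjusted p = 0.0205). That of Canx differed between BRE and WT (adjusted p = 0.0457).

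In level, 7 of the 17 (41.2%) were called in BRE against WT, against 36.9% of all genes. Lower were Irf1 (-0.54, SE 0.11, limma adjusted p = 0.000126), Tap2, Irf7 (-0.41, SE 0.11, adjusted p = 0.0028), Tap1 and H2-K1, and higher were the receptor subunit Ifngr2 (0.20, SE 0.04) and Nlrc5. In RERE against WT 1 was called, B2m, the light chain of class I, at -0.14 (SE 0.03, adjusted p = 0.0251). Markers of several cell types differed in BRE against WT, where 36.9% of all genes were called. Of 4 hair follicle markers, Lhx2 (-0.94, SE 0.13) and Cd34 (-0.96, SE 0.28) were lower. Krt79 (-0.06, SE 0.10) was not called, and Lgr5 lay below 0. Krt79 carried most of the summed hair follicle level, which averaged 8.49 log2 RPKM in WT and 8.41 in BRE. Of 4 melanocyte markers, Pmel (-0.47, SE 0.09) and Dct (-0.66, SE 0.24) were lower. Of 8 keratinocyte markers, Krt1 (0.36, SE 0.05), Krt10 (0.35, SE 0.06) and Dsg1a (0.27, SE 0.06) were higher and Krt15 (-0.17, SE 0.05) lower. Of 3 sebaceous markers, Scd1 was higher (0.18, SE 0.07). The other sebaceous markers lay below 0 and had lower means in BRE than in WT: Mc5r -1.3 against -0.47, and Awat1 -1.28 against -0.99. Of 5 T cell markers, Cd3e (-0.36, SE 0.13) and Cd3g (-0.33, SE 0.11) were lower and Thy1 higher (0.64, SE 0.14). Of 7 Langerhans and myeloid markers, Cd74 (-0.34, SE 0.13) and H2-Eb1 (-0.34, SE 0.13) were lower. Against WT, Krt1 was also higher in RERE (0.42, SE 0.05) and in EpiRE (0.42, SE 0.07), where 2.14% and 2.23% of all genes were called. In EpiRE the hair follicle markers Lhx2 (-0.82, SE 0.14) and Krt79 (-0.35, SE 0.10) were lower. The summed Langerhans and myeloid level averaged 7.32 log2 RPKM in WT (6.18 to 8.30), 7.17 in RERE (6.26 to 7.90), 7.18 in EpiRE (6.49 to 7.92) and 7.0 in BRE (6.07 to 8.05), and that of T cells 5.76 (4.32 to 6.75), 5.68 (4.91 to 6.64), 5.90 (4.73 to 7.08) and 6.11 (5.52 to 6.83). Thy1 (5.08 in WT and 5.73 in BRE) carried most of the T cell sum, while the other 4 markers had lower means in BRE, of which Cd3d (-0.17) and Ptprc (-0.20) were not called. Their part in the lower immunoproteasome levels was not tested.

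In the authors' deposited tables, at a q-value under 0.05, 2 of the 46 genes (Psmd3 and Psmd6) passed in both BIOCYCLE and JTK_CYCLE in WT, against 7.73% of the 11028 genes, and 0 passed in RERE against 1.76%. By JTK_CYCLE alone the authors' deposited tables gave 8 in WT (Psmd1, Psmd2, Psmd3, Psmd6, Psmd8, Psmd13, Psmd14, Psme2) against 18.2% and 6 in RERE (Psmb9, Psmb10, Psmd3, Psmd8, Psme1, Psme2) against 10.3%. None of the 46 passed in EpiRE or BRE by the authors' deposited tables, where 0.0% and 0.0272% of genes did so by JTK_CYCLE.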

How the data were processed

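Polyadenylated RNA of 96 epidermal libraries was analysed, in 24 groups of 4. Epidermis was separated with dispase and libraries were stranded, per the labels' protocols. The authors used, per the submitters' processing notes, Trimmomatic 0.36, HISAT2 2.2.1, SAMtools 1.3.1, featureCounts 1.6.0, edgeR (no version) and mm10. Neither labels nor headers say whether counting used molecular identifiers or strand. The deposited tables, 4 from BIOCYCLE and 4 from JTK_CYCLE, hold log2 RPKM per library made by the authors, with a prior on the reads. The authors' deposited p-values and q-values were used only where named. A further 96 per-library columns of the JTK_CYCLE tables carry codes that match no label and were not used; those codes are out of order in EpiRE and BRE, so the CT of these 2 genotypes rest on the BIOCYCLE column names.

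Whole reads were recovered for 22477 of 22497 genes, with 99.999% of values within 0.1 read of a whole number, and a prior of 0.25 reads. They served for depth and for limma-voom, which called 20 members rhythmic in WT and 9 in RERE.

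A fit tested the genes that averaged 0 log2 RPKM or more over its libraries, with limma 3.58.1 in R 4.3.3 (empirical Bayes with a mean trend), after tests on simulated data. Rhythm was the F test of a 24 h cosine and sine in 24 libraries, difference in rhythm the F test of its interaction with genotype in 48 (5 contrasts), and level the two-sided test of genotype beside CT as a factor in 48 (6 contrasts). Benjamini-Hochberg adjustment was over all tested genes. Mice are the replicates. Alternatives were time as a factor, a spread shared by 96 libraries, median-of-ratios scaling, no filter, log2(RPKM + 1), limma-voom, the replicate number as a block, each replicate left out and, added after seeing the data, 3 libraries that stood apart left out (above the upper quartile by 1.5 interquartile ranges in the SD from their group). Any member could be named with its level. Named with values were called members (where over 10 were called, the 6 largest amplitudes and 2 smallest p), the 2 smallest p of a contrast without calls, Psmb5 to Psmb10, Psme1 and Psme2 in any case, and up to 5 called genes of each other list by smallest p. Pomp, Sem1, Tap1 in RERE and Nlrc5 in WT were added after their values were seen. Members and lists were chosen with earlier results of these data known.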

Additional observations from a re-analysis of the deposited data

Results flagged for a closer look

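For the 14 members described by time (24 groups of 4 libraries each), 21 of 336 groups (6.25%) held a library far from the other 3, where chance alone gives about 1 in 20. They fell in 17 different libraries. High libraries, in log2 RPKM with the nearest other value, were Psmb10 in WT CT4 replicate 3 at 3.80 (3.53) and in BRE CT8 replicate 3 at 3.37 (2.88), Psmb5 in BRE CT0 replicate 4 at 6.16 (5.90) and in the same library Psmb7 at 4.90 (4.67) and Psmb4 at 7.06 (6.66), Psmb8 in WT CT8 replicate 4 at 6.21 (5.63) and in the same library Psmb4 at 6.84 (6.52) and Psma5 at 4.84 (4.56), Psmd8 in WT CT0 replicate 2 at 5.94 (5.71) and in RERE CT20 replicate 1 at 5.71 (5.60), and Psme2 in EpiRE CT20 replicate 1 at 6.17 (5.92). Low libraries were Psmb5 in EpiRE CT4 replicate 3 at 5.71 (5.94), Psmb7 in BRE CT4 replicate 1 at 4.61 (4.71), Psmb8 in RERE CT8 replicate 4 at 5.25 (5.57), in EpiRE CT4 replicate 2 at 5.12 (5.47), in BRE CT0 replicate 2 at 5.09 (5.34) and in BRE CT20 replicate 3 at 4.85 (5.53), Psmd8 in EpiRE CT16 replicate 4 at 5.48 (5.59), Psmb4 in WT CT16 replicate 4 at 6.52 (6.61) and in EpiRE CT4 replicate 4 at 6.51 (6.64), and Psmd10 in WT CT8 replicate 1 at 2.62 (2.94). Psmb8 held 5 of the 21, and BRE CT0 replicate 4 and WT CT8 replicate 4 held 3 each.

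The rhythm of Psmd8 differed between BRE and WT by the test of the difference itself (limma adjusted p = 0.0433), with an amplitude of 0.16 (SE 0.03) in WT. It was the lone member called in 5 such contrasts, and the call was lost with any replicate left out.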

How the results depend on the processing

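Median-of-ratios scaling turned the balance of higher and lower level calls, from 1 and 8 to 6 and 5 in BRE against WT, from 3 and 1 to 1 and 3 in RERE against BRE, and from 4 and 1 to 1 and 9 in EpiRE against BRE. No called value of a single gene changed sign, and log2(RPKM + 1) and limma-voom kept every count within 1.5 times. Counts that moved were those of rhythm in WT (21) to 12 with no filter and 6 with time as a factor; rhythm in BRE (1) to 0 with no filter, time as a factor, the spread of 96 libraries and the replicate block; the difference in rhythm BRE against WT (1) to 0 with no filter, and RERE against EpiRE (0) to 1 with median-of-ratios scaling; and levels RERE against WT (2) to 4 and EpiRE against WT (0) to 1 with no filter, RERE against BRE (4) to 2 and EpiRE against BRE (5) to 8 without the libraries that stood apart, and EpiRE against BRE to 10 with median-of-ratios scaling. The cause was not tested, also for the no-filter counts, where more genes are tested. With 1 replicate number left out, rhythm counts ran from 4 to 17 in WT, 1 to 7 in RERE and 0 to 0 in BRE; differences in rhythm 0 to 0 for BRE against WT and 0 to 1 for RERE against EpiRE; and levels 4 to 7 for BRE against WT, 1 to 3 for EpiRE against BRE, 0 to 3 for RERE against BRE and 0 to 3 for RERE against WT.

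The replicate numbers did not pair libraries: deviations of same-numbered libraries correlated at 0.004 on average (lowest -0.435), against -0.001 for other numbers, and 29 of 96 libraries correlated best with their own number. With the number as a block, 18 members were rhythmic in WT and 8 in RERE, and 8 differed in level in BRE against WT. The SE of the amplitude was 0.03 to 0.05 log2 for the members called in WT, so a member not called may still vary over the day by a like amount. Median-of-ratios scaling moved genotype means by -0.021 to 0.016 log2, less than most called differences but near those of the standard subunits.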
